A study of Mus musculus with 6 samples.

Results

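The renin-angiotensin system was examined in hypoxic mouse kidney through 9 genes, taken as the rows of the deposited count table that carry the names Ren1, Agt, Ace, Agtr1a, Agtr1b, Mas1, Enpep, Mme and Atp6ap2. All 9 were found, among 54532 named genes, and 7 of them passed the expression filter and were tested. The groups were 3 kidney libraries labelled Lpar3-/-, from mice described as lacking a receptor for lysophosphatidic acid, and 3 labelled WT. Both groups had spent 12 h in normobaric hypoxia at 8% oxygen, which means that genotypes are compared within hypoxia and the response to hypoxia itself was not analysed here. The sources used here do not state the strain, sex or age, the design of the allele or any pooling of animals. Since no label ties each library to its own mouse, p-values reflect the spread among these libraries, which may be technical.

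The renin-angiotensin system is a cascade of peptides that raises blood pressure and retains salt. Renin, released by granular cells of the afferent arteriole, cuts angiotensinogen to angiotensin I, and angiotensin-converting enzyme turns that into angiotensin II, which acts through type 1 receptors. Other peptidases of the kidney, among them neprilysin and aminopeptidase A on the brush border of the proximal tubule, break the peptides down or divert them to angiotensin 1-7, the ligand of the Mas receptor.

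Depth was similar across libraries, with total counts between 16011804 and 17991881. All 7 markers of distal nephron and kidney identity, Umod and Slc12a1 among them, were present and tested. Of 6 adrenal cortex markers, Cyp11b1 and Cyp21a1 had 0 counts in all 6 libraries, 3 were too low for a test, and Star had 62, 66 and 87 counts in the libraries labelled Lpar3-/-, against 70, 80 and 82 in WT. The summed level of that list overlapped, at 4.27 to 5.43 CPM in the libraries labelled Lpar3-/- and 4.29 to 5.62 CPM in WT. Lpar3 itself had 672, 592 and 580 counts in the libraries labelled Lpar3-/-, against 645, 634 and 577 in WT. The targeted gene therefore did not set the groups apart at the level of whole-gene counts, and every direction below rests on the labels. In these data 57 of 15225 tested genes (0.374%) passed an adjusted p of 0.05, which is the threshold for a call throughout (edgeR quasi-likelihood test, Benjamini-Hochberg over all genes tested).

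Of the 7 members tested, 1 passed. Mme, which encodes the membrane endopeptidase neprilysin, rose 1.33-fold in the libraries labelled Lpar3-/- (0.125% of all genes tested passed as higher and 0.250% as lower). Ace and Ren1 lay on the other side, at 0.72 and 0.73 of their WT levels, but did not pass, and Agt had 0.80 of its WT level and did not pass either. Enpep, Agtr1a and Atp6ap2 had log2 fold changes between -0.10 and 0.09. The median log2 fold change was -0.10 over the 7 members and -0.0036 over all genes tested. At an unadjusted p below 0.05 there were 3 members, namely Mme, Ace and Ren1, against 9.18% of all genes tested. The 3 libraries of one group lay wholly above those of the other for 3 members, namely Mme, Ace and Agt, against 13.7% of all genes tested. Mme was the one that lay higher in the libraries labelled Lpar3-/-, as 6.58% of all genes did, and Ace and Agt the 2 that lay lower, as 7.12% did.

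**Figure D1:**
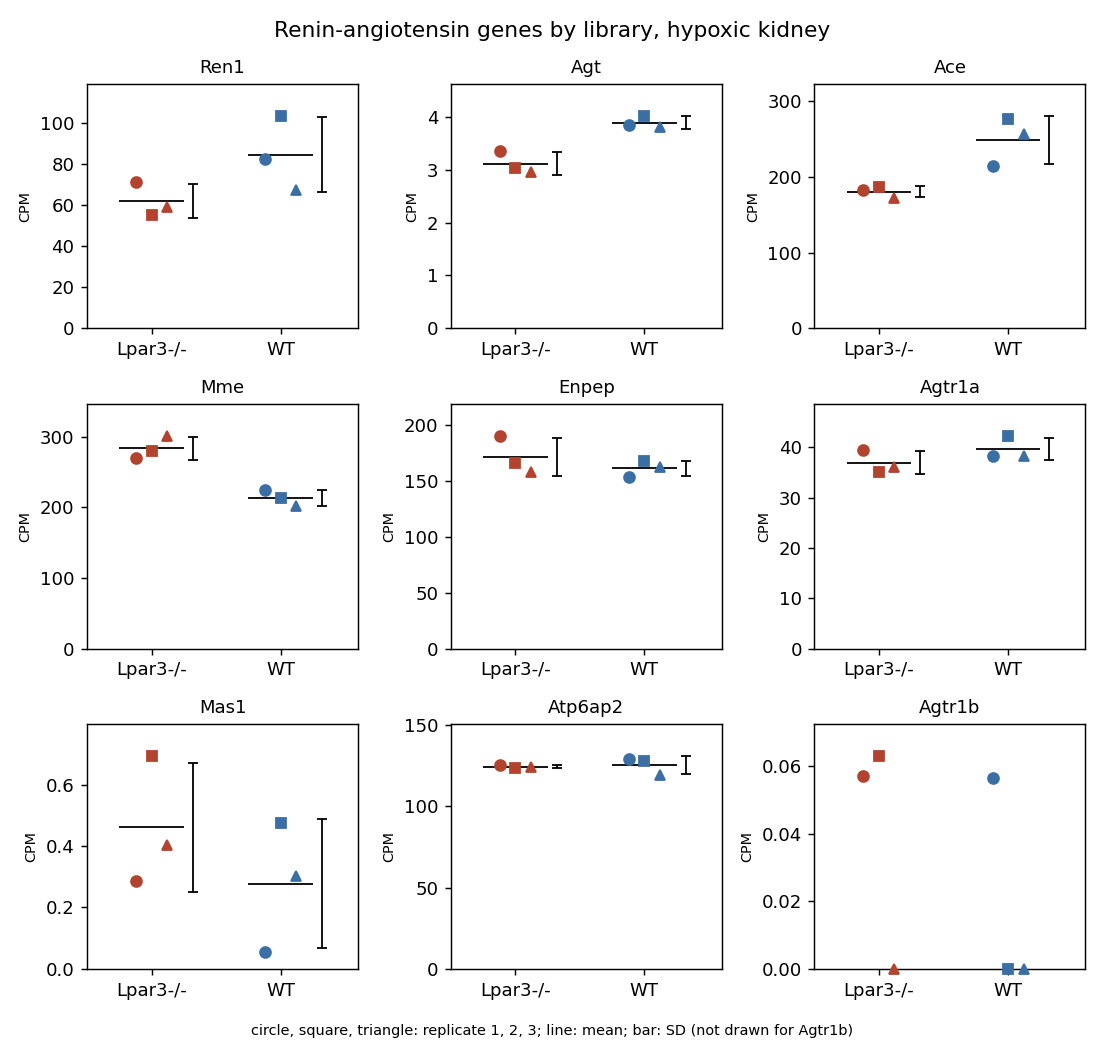
Expression of the 9 genes in each library, in CPM (vertical axis from 0), for the libraries labelled Lpar3-/- (red, left) and WT (blue, right); markers are replicates, lines are means and bars are SD (neither drawn for Agtr1b). The groups separate fully for Mme (higher in the libraries labelled Lpar3-/-) and for Ace and Agt (lower), while Ren1 overlaps between WT replicate 3 and one library labelled Lpar3-/-.

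Levels can be compared between genes only per unit of length, for which the FPKM values of the authors were used. Atp6ap2 was the most abundant of the 9 by mean FPKM over the 6 libraries (47.4 FPKM), followed by Ren1 (43.9 FPKM), Ace (40.3 FPKM), Enpep (35.0 FPKM), Mme (21.3 FPKM), Agtr1a (13.6 FPKM) and Agt (1.84 FPKM). Mas1 (0.140 FPKM) and Agtr1b (0.0136 FPKM) came last. The ranges of neighbouring genes over the 6 libraries overlapped from Atp6ap2 down to Enpep, so the order of those neighbours is not resolved, although Atp6ap2 lay wholly above Enpep. Enpep, Mme, Agtr1a, Agt and Mas1 followed each other without overlap, whereas Mas1 and Agtr1b overlapped. The length used is that of all annotated exon bases, 4706 for Enpep and 11542 for Mme. In CPM Mme lay above Enpep in every library, so the order of these genes depends on that length. Renin mRNA stood at 20.9 to 24.2 times the per-length level of angiotensinogen mRNA in the libraries labelled Lpar3-/-, against 20.3 to 29.5 times in WT. These ratios overlapped between the groups.

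**Figure D2:**
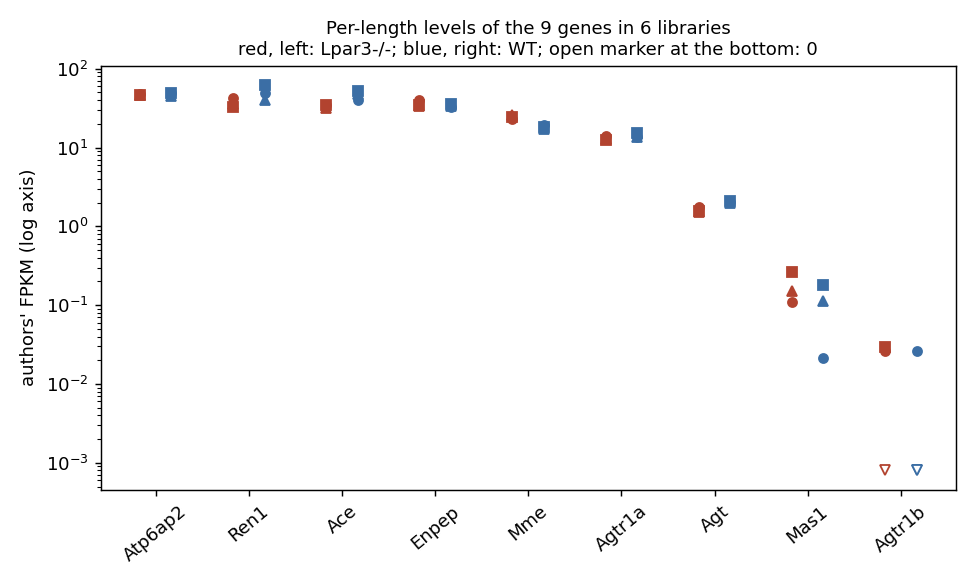
Per-length expression of the 9 genes (FPKM of the authors, log axis) in the libraries labelled Lpar3-/- (red, left of each pair) and WT (blue, right), ordered by the mean over 6 libraries; open markers at the bottom are libraries listed at 0. Levels span from 47.4 FPKM for Atp6ap2 to 0.0136 FPKM for Agtr1b.

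Mme (ENSMUSG00000027820, GRCm38 chromosome 3, 63241537 to 63386030, plus strand) encodes neprilysin, which cuts angiotensin I to angiotensin 1-7 and also degrades natriuretic peptides, bradykinin and endothelin. In the kidney it sits on the proximal brush border and on podocytes. Mme had 4733, 4449 and 5210 counts in the libraries labelled Lpar3-/-, against 3966, 3597 and 3327 in WT. As counts scaled to a common library size (CPM) these were 269.6, 280.2 and 301.1 CPM in the libraries labelled Lpar3-/-, against 223.8, 212.8 and 201.2 CPM in WT. Each of the libraries labelled Lpar3-/- lay above each WT library. The means were 283.6 ± 16.1 CPM in the libraries labelled Lpar3-/- and 212.6 ± 11.3 CPM in WT (SD, n = 3 each), with a log2 fold change of 0.42 (SE 0.074, 95% interval 0.25 to 0.58, edgeR adjusted p = 0.0386). As these are whole tissue libraries, a change in the number of cells of a type and a change in RNA per cell cannot be told apart. This holds for Mme and for any gene below.

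The call for Mme depended on the libraries and on the method, whereas its size changed little. The log2 fold change stayed between 0.37 and 0.46 with each library left out in turn. The edgeR adjusted p was 0.102 without labelled Lpar3-/- replicate 1, 0.176 without replicate 2 and 0.277 without replicate 3. It was 0.0815 without WT replicate 3, and the call held without WT replicate 1 (0.0232) or replicate 2 (0.0482). With all libraries, limma on log2 FPKM gave an adjusted p of 0.182 with a pseudocount of 1 and 0.147 with 0.1. Mme was called under 8 of 15 alternatives, among them DESeq2 (adjusted p = 2.73e-05) and limma-voom (adjusted p = 0.0317).

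**Figure D3:**
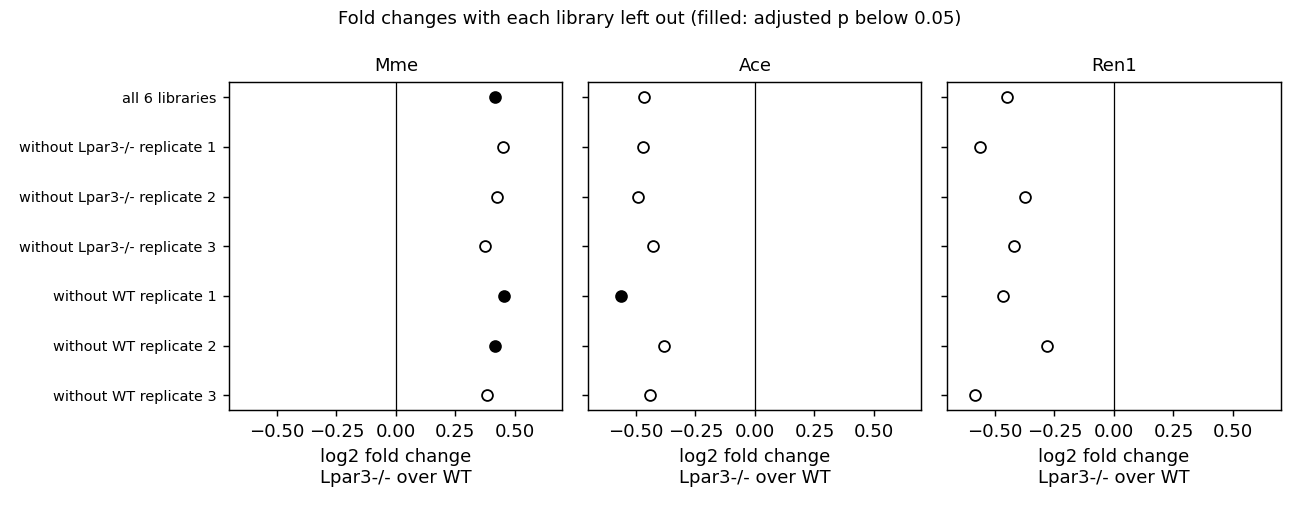
Log2 fold change (horizontal axis, libraries labelled Lpar3-/- over WT) of Mme, Ace and Ren1 with all 6 libraries and with each library left out in turn (rows); filled points have an edgeR adjusted p below 0.05. Mme stays between 0.37 and 0.46, Ace between -0.56 and -0.38 and Ren1 between -0.59 and -0.28.

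Markers of the cell types that express Mme are given beside it. Of 10 proximal tubule markers edgeR called 0, with a median log2 fold change of 0.052. At an unadjusted p below 0.05 there were 5 (2 higher and 3 lower), against 9.18% of all genes tested. The higher ones were Slc5a12 (log2 fold change 0.38, SE 0.094) and Slc6a19 (0.24, SE 0.074), both without overlap between the groups. Those lower were Slc5a2 (-0.30, without overlap), Slc22a6 (-0.19) and Slc22a7 (-1.09). Of all genes tested 6.58% lay wholly higher and 7.12% wholly lower in the libraries labelled Lpar3-/-. The summed level of the list was 8396 to 8954 CPM in the libraries labelled Lpar3-/- and 8132 to 8758 CPM in WT. Slc34a1 and Lrp2 were its most abundant genes. Of 7 podocyte markers edgeR also called 0, with 1 at an unadjusted p below 0.05, a median of 0.067 and summed levels of 405.3 to 428.4 CPM in the libraries labelled Lpar3-/- and 371.5 to 442.2 CPM in WT. For both lists the groups overlapped in summed level. The 7 markers of distal nephron and kidney identity had the sign of Mme, with 7 positive fold changes, a median log2 fold change of 0.16, 0 called by edgeR and 2 at an unadjusted p below 0.05. Their summed level did not overlap, at 6015 to 6434 CPM in the libraries labelled Lpar3-/- and 5198 to 5741 CPM in WT. Slc12a1, the salt transporter of the thick ascending limb, had a log2 fold change of 0.39 (SE 0.077, edgeR adjusted p = 0.0613). Their part in the level of Mme was not tested.

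Ace (ENSMUSG00000020681, GRCm38 chromosome 11, 105967945 to 105989964, plus strand) encodes angiotensin-converting enzyme, which makes angiotensin II and inactivates bradykinin. It had 182.2, 186.7 and 172.1 CPM in the libraries labelled Lpar3-/-, against 214.0, 276.4 and 256.1 CPM in WT. The groups did not overlap, and WT replicate 1 was the WT library nearest to the other group. Ace averaged 180.3 ± 7.52 CPM in the libraries labelled Lpar3-/- and 248.8 ± 31.8 CPM in WT (SD, n = 3 each). By edgeR this was a log2 fold change of -0.46 (SE 0.092, 95% interval -0.66 to -0.26, unadjusted p = 0.000301), and the adjusted p of 0.0635 missed the threshold. DESeq2 called Ace (adjusted p = 0.000363), and so did edgeR without a filter on low counts (adjusted p = 4.70e-06). Without WT replicate 1 the log2 fold change was -0.56 and passed (edgeR adjusted p = 0.00619). These were the 3 calls for Ace among 15 alternatives. Its largest edgeR adjusted p was 0.355, without labelled Lpar3-/- replicate 3. An antisense gene, Gm11651, covers 5.58% of the exon bases of Ace, and the sources used here do not state the strand setting of the counting. The counts also pool the long somatic form with the short form that starts inside the gene in testis.

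Proximal tubule and endothelium, the main sites of Ace in kidney, were checked beside it. The proximal tubule list is given above. Of 8 endothelial markers edgeR called 0, with 1 (Pecam1, lower) at an unadjusted p below 0.05. Their median log2 fold change was -0.026, and their summed level was 383.0 to 428.1 CPM in the libraries labelled Lpar3-/- and 402.5 to 420.3 CPM in WT. Macrophage and fat markers had negative fold changes, as Ace and Ren1 had. Of 6 fibroblast markers 5 had negative fold changes and 1 a positive one, with a median log2 fold change of -0.32. EdgeR called 0 of them, with 1 (Col1a1, lower) at an unadjusted p below 0.05. Their summed level overlapped, at 159.2 to 172.4 CPM in the libraries labelled Lpar3-/- and 140.4 to 253.9 CPM in WT. The 6 macrophage markers had a median log2 fold change of -0.56, with 6 of 6 negative, 0 called by edgeR and 3 at an unadjusted p below 0.05. Those 3 were C1qa, C1qb and C1qc, neighbours on chromosome 4. Csf1r, the most abundant of the list, had a log2 fold change of -0.045 (SE 0.086). It overlapped between the groups, as did C1qb and Cd68. The summed level of the 6 macrophage markers was 76.8 to 82.4 CPM in the libraries labelled Lpar3-/- and 87.8 to 110.8 CPM in WT, without overlap and with none at 0. The 7 adipocyte markers, with 7 of 7 negative, are described with Agt. The part of macrophages, fibroblasts and fat in the levels of Ace and Ren1 was not tested.

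Ace and Mme, which act on the same angiotensin I in different ways, had fold changes of opposite sign. The ratio of Ace to Mme in FPKM was 1.48, 1.45 and 1.25 in the libraries labelled Lpar3-/-, against 2.09, 2.83 and 2.78 in WT. The groups did not overlap, which follows from the separation of both genes and adds nothing to it. The mean ratio was 1.39 ± 0.126 in the libraries labelled Lpar3-/- and 2.57 ± 0.417 in WT (SD, n = 3 each). The ratio was chosen with the fold changes of both genes known and is given as a description, with no test.

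Ren1 (ENSMUSG00000070645, GRCm38 chromosome 1, 133350510 to 133360325, plus strand) encodes renin, the enzyme that starts the cascade. It had 1251, 878 and 1028 counts in the libraries labelled Lpar3-/-, against 1467, 1755 and 1119 in WT. In CPM these were 71.2, 55.3 and 59.4 in the libraries labelled Lpar3-/-, against 82.8, 103.8 and 67.7 in WT. The groups overlapped, since labelled Lpar3-/- replicate 1 lay above WT replicate 3, and the WT libraries were spread more widely than the others. Ren1 averaged 62.0 ± 8.28 CPM in the libraries labelled Lpar3-/- and 84.8 ± 18.2 CPM in WT (SD, n = 3 each). Its log2 fold change of -0.45 (SE 0.14, 95% interval -0.75 to -0.15, unadjusted p = 0.00675) did not pass (edgeR adjusted p = 0.282). Without WT replicate 2 it was -0.28 (edgeR adjusted p = 0.472). Some mouse strains carry a second, nearly identical renin gene, Ren2, which had no row of that name in the count table. In such a strain the counts of Ren1 could include its reads.

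Markers of the cells that hold renin gave no call. Akr1b7, an aldo-keto reductase made by renin cells, had 21, 21 and 12 counts in the libraries labelled Lpar3-/-, against 14, 34 and 13 in WT. The groups overlapped (log2 fold change -0.16, SE 0.45). Of the 8 markers of renin cells and smooth muscle edgeR called 0, with 1 at an unadjusted p below 0.05. That gene was Acta2, smooth muscle actin, with 18.2 ± 2.71 CPM in the libraries labelled Lpar3-/- and 25.2 ± 0.816 CPM in WT (SD, n = 3 each, edgeR adjusted p = 0.132). The log2 fold change of Acta2 was -0.47 (SE 0.11), and the groups did not overlap. Over the 8 markers 7 fold changes were negative and 1 was positive, with a median log2 fold change of -0.13. The summed level of the list was 204.2 to 223.2 CPM in the libraries labelled Lpar3-/- and 213.2 to 235.6 CPM in WT. Whether these markers have a part in the level of Ren1 was not tested.

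The sequences at the starts of Ren1, Ace and Mme are shown because these are the 3 members with an unadjusted p below 0.05. Each is 300 bases from RefSeq on build GRCm38.p6, 250 before and 50 after an annotated start, on the plus strand and 5′ to 3′. Capitals mark matches to 5 short motifs searched on both strands: the TATA box TATAAA, the GC box GGGCGG bound by Sp1-type factors, the cores ACGTG and GCGTG of the hypoxia response element, and TGACG, the core of the cyclic AMP response element. Adjacent or overlapping matches run together. The windows are chr1:133350424-133350723 for Ren1, chr11:105967698-105967997 for the somatic start of Ace, and chr3:63294961-63295260 and chr3:63295622-63295921 for annotated starts of Mme. The gene as counted begins further upstream, at 63241537, where there was no window. The word upstream for Mme refers to the order of the windows only.
Ren1: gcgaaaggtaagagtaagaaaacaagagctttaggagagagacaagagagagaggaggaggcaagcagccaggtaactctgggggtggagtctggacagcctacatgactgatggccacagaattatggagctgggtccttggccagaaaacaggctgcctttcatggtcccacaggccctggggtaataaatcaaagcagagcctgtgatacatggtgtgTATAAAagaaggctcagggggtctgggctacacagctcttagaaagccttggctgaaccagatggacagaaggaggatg
Ace: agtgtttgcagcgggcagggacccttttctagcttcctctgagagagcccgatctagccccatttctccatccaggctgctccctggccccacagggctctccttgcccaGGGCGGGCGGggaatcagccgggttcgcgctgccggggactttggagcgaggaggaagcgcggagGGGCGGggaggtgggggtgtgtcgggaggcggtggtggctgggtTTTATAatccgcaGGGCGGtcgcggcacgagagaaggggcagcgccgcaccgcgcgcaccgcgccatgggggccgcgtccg
Mme, upstream start: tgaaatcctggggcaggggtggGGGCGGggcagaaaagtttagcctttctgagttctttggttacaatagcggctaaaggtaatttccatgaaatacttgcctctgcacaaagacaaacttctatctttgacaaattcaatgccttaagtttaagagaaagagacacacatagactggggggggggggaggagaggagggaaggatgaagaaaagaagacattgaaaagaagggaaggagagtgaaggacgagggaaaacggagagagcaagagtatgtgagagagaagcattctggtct
Mme, next start: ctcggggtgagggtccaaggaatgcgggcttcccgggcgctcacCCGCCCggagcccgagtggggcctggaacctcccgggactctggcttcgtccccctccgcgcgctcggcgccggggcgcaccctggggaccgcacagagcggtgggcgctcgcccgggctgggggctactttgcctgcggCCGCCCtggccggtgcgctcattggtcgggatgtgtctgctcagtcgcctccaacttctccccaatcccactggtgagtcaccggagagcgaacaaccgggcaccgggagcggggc

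The Ren1 window held TATAAA at -29, counted from the start, and none of the other 4 motifs. The Ace window held TATAAA on the minus strand at -31 and GGGCGG at 4 places, at -140, -136, -75 and -18. The upstream Mme window held GGGCGG at -228, and the next one held it on the minus strand at -206 and -66. The remaining Mme window, chr3:63295845-63296144, overlaps the second and held GGGCGG at -118 and -19 and GCGTG at -28. Of 32851 such windows of annotated genes, 13.6% held TATAAA, 35.7% GGGCGG, 19.6% ACGTG, 32.4% GCGTG and 20.8% TGACG. GC content was 51.3% for Ren1, 69.7% for Ace and 46.0% and 73.0% for the printed Mme windows, against a median of 52.7% over all windows. Counts per gene do not show which start of Mme or Ace was used. Of the 9 genes, 8 had at least 1 such window.

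Agt (ENSMUSG00000031980, GRCm38 chromosome 8, 124556534 to 124569706, minus strand) encodes angiotensinogen, the substrate of renin, which comes mainly from the liver, with smaller amounts made in kidney and fat. It had 59, 48 and 51 counts in the libraries labelled Lpar3-/-, against 68, 68 and 63 in WT. The groups did not overlap, but the counts are small. Its level was 3.11 ± 0.220 CPM in the libraries labelled Lpar3-/- and 3.89 ± 0.116 CPM in WT (SD, n = 3 each). The log2 fold change of -0.32 had a 95% interval of -0.77 to 0.12 (SE 0.20, edgeR adjusted p = 0.707), so a difference in either direction was not detectable at this depth.

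Fat and liver markers are given beside Agt. All 7 adipocyte markers had negative fold changes, with a median log2 fold change of -1.51, and edgeR called 0 of them, with 6 at an unadjusted p below 0.05. Their summed level was 123.6 to 197.4 CPM in the libraries labelled Lpar3-/- and 183.3 to 344.5 CPM in WT, and none was at 0. Fabp4, the most abundant of them, overlapped between the groups (log2 fold change -0.40, SE 0.17), as did Lep and Retn. The other 4, Adipoq, Plin1, Cfd and Cidec, lay wholly lower in the libraries labelled Lpar3-/-, as 7.12% of all genes tested did. Adipoq, the adiponectin gene, had 1.99, 5.67 and 3.24 CPM in the libraries labelled Lpar3-/-, against 14.2, 10.1 and 6.05 CPM in WT. The part of fat in the level of Agt was not tested. Of 6 liver markers 3 were tested, with 0 called by edgeR, 1 at an unadjusted p below 0.05 and a median log2 fold change of -0.22. Their summed level overlapped, at 75.9 to 92.3 CPM in the libraries labelled Lpar3-/- and 83.1 to 146.7 CPM in WT. Ttr, the transthyretin gene, had 755, 873 and 779 counts in the libraries labelled Lpar3-/-, against 833, 1729 and 1215 in WT (log2 fold change -0.64, SE 0.21). Alb, the albumin gene, had 68, 50 and 62 counts in the libraries labelled Lpar3-/-, against 61, 32 and 26 in WT (log2 fold change 0.61, SE 0.30). The log2 fold change of Apob was -0.22 (SE 0.11). Fgb was at 0 in every library. The part of liver RNA in the level of Agt was not tested.

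Atp6ap2 (chromosome X, 12587801 to 12617049, plus strand) encodes the prorenin receptor, which is also an accessory subunit of the vacuolar proton pump. It had 125.3, 123.6 and 124.5 CPM in the libraries labelled Lpar3-/-, against 129.3, 128.1 and 119.3 CPM in WT. The libraries labelled Lpar3-/- lay inside the WT range. On the log2 scale the fold change was -0.013 (SE 0.065, edgeR adjusted p = 0.980), with a 95% interval of -0.15 to 0.13.

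Enpep (ENSMUSG00000028024, GRCm38 chromosome 3, 129269175 to 129332720, minus strand) encodes aminopeptidase A, which converts angiotensin II to angiotensin III. It had 190.1, 165.4 and 158.1 CPM in the libraries labelled Lpar3-/-, against 153.6, 167.3 and 162.0 CPM in WT. Replicate 1 of the libraries labelled Lpar3-/- was the highest of the 6, and the groups overlapped. Its log2 fold change of 0.089 had a 95% interval of -0.087 to 0.27 (SE 0.081, edgeR adjusted p = 0.821). Enpep lies 16.9 Mb from Lpar3 on the same chromosome. Mme lies 82.8 Mb and Agtr1b 126 Mb from it, so 3 of the 9 genes share the chromosome of the targeted gene.

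Agtr1a (ENSMUSG00000049115, GRCm38 chromosome 13, 30336441 to 30382867, plus strand) encodes the main type 1 receptor of angiotensin II in mouse kidney, found on vessels, mesangial cells and tubules. It had 39.5, 35.2 and 36.1 CPM in the libraries labelled Lpar3-/-, against 38.4, 42.3 and 38.3 CPM in WT. The groups overlapped through replicate 1 of the libraries labelled Lpar3-/-. Agtr1a had a log2 fold change of -0.10, with a 95% interval of -0.28 to 0.075 (SE 0.081, edgeR adjusted p = 0.785). Of 6 mesangial cell and pericyte markers edgeR called 0, with 1 (Notch3, lower) at an unadjusted p below 0.05. Notch3 did not overlap between the groups, and 7.12% of all genes tested lay wholly lower. Over the 6 markers 5 fold changes were negative and 1 was positive, with a median log2 fold change of -0.12. Their summed level was 101.4 to 110.9 CPM in the libraries labelled Lpar3-/-, within the 91.0 to 129.5 CPM of WT.

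Agtr1b, the second type 1 receptor gene of rodents, and Mas1, the receptor gene for angiotensin 1-7, did not reach the level needed for a test. Agtr1b had 1, 1 and 0 counts in the libraries labelled Lpar3-/-, against 1, 0 and 0 in WT. A count of 0 allows up to 3 counts, or 0.169 to 0.189 CPM in these libraries, so both groups were at or under that floor. Such limits cover counting error only. Agtr1b is a close copy of Agtr1a, and reads that match both may have been dropped or split. Mas1 had 5, 11 and 7 counts in the libraries labelled Lpar3-/-, against 1, 8 and 5 in WT. The groups overlapped, and no difference was detectable at this depth.

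The wider pathway was described with 14 further genes, of which 9 were tested. EdgeR, limma-voom and DESeq2 each called 0 of them, and by edgeR 0 were below an unadjusted p of 0.05. Of the 9, 6 had positive and 3 negative fold changes, with a median log2 fold change of 0.057. Anpep, the brush border aminopeptidase N that shortens angiotensin III, had 130.9 ± 2.06 CPM in the libraries labelled Lpar3-/- and 130.9 ± 5.64 CPM in WT (SD, n = 3 each). The 4 genes with the lowest p were peptidases that also act on angiotensins. Thop1 had 18.9 ± 0.396 CPM in the libraries labelled Lpar3-/- and 16.3 ± 1.22 CPM in WT, with groups that did not overlap (edgeR adjusted p = 0.575). For Prcp the log2 fold change was 0.16 (SE 0.085) and for Prep 0.13 (SE 0.075). Ctsa, cathepsin A, had -0.088 (SE 0.071) on the same scale. Of the 9 tested, 2 (Thop1 and Prep) lay wholly higher in the libraries labelled Lpar3-/-, as 6.58% of all genes tested did. Agtr2, Cma1, Ctsg and Cpa3 did not exceed 6 counts in any library, and Mrgprd had 0 in all of them.

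**Figure D4:**
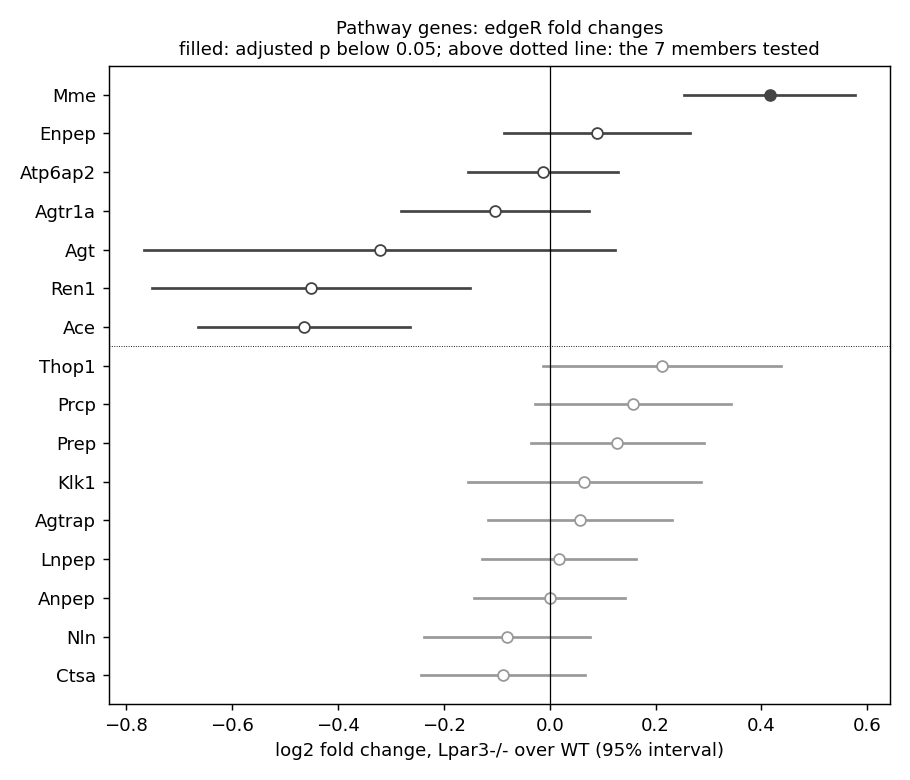
Log2 fold changes (horizontal axis, libraries labelled Lpar3-/- over WT) with 95% intervals for the 7 members tested (above the dotted line) and 9 other genes of the pathway (below); the filled point has an edgeR adjusted p below 0.05. Mme is the one filled point, at 0.42, while Ace and Ren1 lie near -0.46 and -0.45.

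Genes that control renin release gave 0 calls among 16 tested by edgeR and limma-voom, and 1 by DESeq2. Their median log2 fold change was -0.036, and 2 had an unadjusted p below 0.05. The first was Vdr, the vitamin D receptor gene, whose protein represses renin transcription in mice. It had 329.9, 348.2 and 322.0 CPM in the libraries labelled Lpar3-/-, against 419.6, 436.3 and 403.9 CPM in WT. The groups did not overlap (log2 fold change -0.33, SE 0.070, edgeR adjusted p = 0.0755), and DESeq2 called this gene. The second was Nos1, the nitric oxide synthase of the macula densa, with 14, 13 and 10 counts in the libraries labelled Lpar3-/- and 17, 29 and 26 in WT (log2 fold change -0.95, SE 0.38, edgeR adjusted p = 0.454). Ptgs2, the prostaglandin synthase of the same cells, had 16, 36 and 15 counts in the libraries labelled Lpar3-/- and 30, 38 and 48 in WT, which overlap (log2 fold change -0.77, SE 0.40). Npr1, a receptor for natriuretic peptides, came next by p, with a log2 fold change of -0.16 (SE 0.10). Adrb1, Gja5 and Gja4, which carry sympathetic and gap junction signals to renin cells, had log2 fold changes of 0.26, -0.029 and -0.043.

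The genes through which aldosterone acts downstream of angiotensin II gave 0 calls among 11 tested by edgeR, DESeq2 and limma-voom, and 0 at an unadjusted p below 0.05. Their median log2 fold change was 0.018. Scnn1g, a subunit of the epithelial sodium channel, had the lowest p, with 33.7 ± 0.705 CPM in the libraries labelled Lpar3-/- and 37.3 ± 1.49 CPM in WT (SD, n = 3 each, edgeR adjusted p = 0.606). Log2 fold changes were 0.10 (SE 0.090) for the kinase gene Sgk1, 0.16 (SE 0.13) for the steroid-induced Fkbp5 and 0.13 (SE 0.11) for the alpha subunit gene Scnn1a. Cyp11b2, which encodes aldosterone synthase, had 0 counts in each library.

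For Ren1 and Agt, the genes with the most similar profile over the 6 libraries were sought among 14080 tested genes with a mean of at least 1 CPM. Likeness was the root mean square difference of log2 CPM after centring each gene on its own mean. Nearest to Ren1 were Shisa4 (0.071), Ccl6 (0.082) and E2f1 (0.084). Nearest to Agt were Spns3 (0.034), Fbxo40 (0.037) and Szrd1 (0.038). With 6 libraries and 14080 genes such likeness is a description only.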

How the data were processed

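Kidney mRNA of 6 libraries was captured by poly-T beads and sequenced, per the labels' protocols. The authors deposited whole-number read counts per gene, not normalized, and a table of FPKM values. The submitters' processing notes name the build GRCm38 and the tools DESeq2 1.20.0, featureCounts 1.5.0-p3 and HISAT2 2.0.5. The sources used here do not state the annotation release or strand setting. The FPKM values deposited by the authors equalled counts over gene length and a size-factor-scaled depth (largest relative deviation 4.11e-08).

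Groups and replicate numbers came from the sample titles. From the counts, 377 rows without a gene name (0.259% to 0.362% of counts) were left out. Counts were tested with edgeR 4.0.16 in R 4.3.3 (default expression filter, TMM, quasi-likelihood F-test, no covariate, Benjamini-Hochberg over 15225 genes). CPM uses TMM-scaled depth, and SE comes from the fold change and F statistic. The common dispersion corresponds to a coefficient of variation of 10.5%. Alternatives were DESeq2 1.42.0, limma-voom 3.58.1, other normalizations and filters, a replicate block, each library left out, and limma on log2 FPKM with a pseudocount of 1 or 0.1, keeping a mean FPKM of 0.1 or more. The tests were tried on simulated data. Promoter windows are RefSeq's, and exon overlaps come from GENCODE on GRCm38.

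The members and gene lists were chosen with earlier results of these data known. Named are all members, Anpep, Lpar3, the called genes and up to 4 genes of lowest p of each pathway list, the 3 nearest profiles of Ren1 and of Agt, and some markers and list members chosen after their values were seen. A further gene of the pathway is not reported here.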

Additional observations from a re-analysis of the deposited data

How the results depend on the processing

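Under 15 alternatives, the signs of Ren1, Agt, Ace, Agtr1a, Enpep and Mme did not change. Atp6ap2, near 0 in all fits, ran from -0.045 to 0.0098 with a library left out, being 0.0098 without WT replicate 1 and 0.0021 without WT replicate 2. The count of all genes called was 57, and became 171 with DESeq2, 520 without a filter on low counts, 9 with limma on log2(FPKM + 1) and 13 on log2(FPKM + 0.1), and 12 to 149 with a library left out (12 without labelled Lpar3-/- replicate 1 or 3, 26 without replicate 2 and 149 without WT replicate 1). The 1 member called became 2 with DESeq2 (Mme and Ace), 3 without a filter (also Ren1, edgeR adjusted p = 2.21e-05), 0 with either FPKM fit and 0 to 2 with a library left out (0 without any 1 library labelled Lpar3-/- or WT replicate 3, and 2, Mme and Ace, without WT replicate 1). Among genes controlling renin release the count of 0 became 1 with DESeq2 and 1 without a filter. The cause was not tested. Adjusted p for Ace ran from 4.70e-06 to 0.355 and for Mme from 2.73e-05 to 0.277 over the alternatives.

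Same-numbered replicates shared little deviation (r = 0.0026, 0.0051 and 0.051 across genes), and r ran from -0.048 to 0.040 for the other pairs. With so few libraries this cannot show whether the replicate numbers pair them, and the labels do not say. With the replicate number as a block 80 genes and 0 members were called, and Mme had an edgeR adjusted p of 0.0572. Depth limits Agt, Mas1 and Agtr1b.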
